A study of Mus musculus with 2 samples.

Results

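Glutamate and GABA receptor subunits were followed through the glioma cells, astrocyte-like cells and oligodendrocytes of 2 mouse glioblastomas. They were chosen by symbol: all genes whose names start with Gria, Grin, Grik, Grid, Grm, Gabra, Gabrb, Gabrg, Gabrd or Gabbr followed by the subunit number where there is one. The rule found 43 of the 27998 genes measured, and 41 of these are subunits: 4 of AMPA receptors, 7 of NMDA receptors, 5 of kainate receptors, 2 of delta receptors, 8 metabotropic glutamate receptors, 13 of GABA-A receptors and 2 of GABA-B receptors. The other 2, among them Grin1os, an antisense RNA of Grin1 with 1 UMI among the glioma cells of each tumour, are no subunits. Both were set apart and enter no count of subunits.

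Glutamate and GABA are the main excitatory and inhibitory transmitters of the brain. AMPA, kainate and NMDA receptors are ion channels that glutamate opens, metabotropic receptors signal through G proteins, GABA-A receptors are chloride channels and GABA-B receptors are G protein coupled. Precursors of oligodendrocytes and astrocytes also carry many of these receptors, and neurons can form synapses onto precursor cells and onto glioma cells.

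The 2 libraries are 3′ droplet RNA libraries (10x Genomics), 1 from each of 2 tumours of C57BL/6 mice aged 3 months, labelled NPCTKO and numbered 1 and 2. In this model neocortical progenitors of the embryo were electroporated with transposon plasmids that carry Cas9, guides against tumour suppressors (Nf1 and Trp53 among others), luciferase and EGFP or DsRed, so each tumour also holds host cells without the plasmids. The hosts were Tek-Cre;Ai14, in which endothelial cells and tumour-associated macrophages are marked, or Tbx18CreERT2/+;Ai14, in which mural cells are marked. A single tumour came from each host type, and as no label gives the host of a library, host, tumour and library cannot be told apart.

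The AMPA channel subunits are shown first, since they made up the largest share of the receptor transcripts. The 30 bases below code for the pore of each subunit (mm10, GENCODE vM21), with the codon of the Q/R site in capitals. Gria1 is read from chr11:57243082-57243111 on the forward strand (exon 11 of 16), Gria2 from chr3:80706896-80706925 on the reverse strand (exon 11 of 16), Gria3 from chrX:41610253-41610282 on the forward strand (exon 12 of 17) and Gria4 from chr9:4464122-4464151 on the reverse strand (exon 12 of 17).
Gria1: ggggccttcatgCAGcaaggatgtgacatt
Gria2: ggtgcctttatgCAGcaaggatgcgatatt
Gria3: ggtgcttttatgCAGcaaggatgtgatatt
Gria4: ggtgcctttatgCAAcaaggatgtgacatt
The genome codes for glutamine at this position in all 4 subunits, by CAG in Gria1, Gria2 and Gria3 and by CAA in Gria4. In neurons the Gria2 transcript is edited there to an arginine codon, and channels that hold the edited subunit pass little calcium. Counts of 3′ ends do not report on this exon, so the values below say how much Gria2 RNA there was and not whether it was edited.

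Tumour 1 gave 14302 barcodes and 282961884 UMIs, and tumour 2 gave 18596 barcodes and 295366782 UMIs. A UMI, or unique molecular identifier, stands for 1 captured transcript. After filtering, 11332 and 13108 cells were kept, and 51 barcodes occurred in both libraries. Cells were classed by summed marker genes that include no receptor subunit, such as Olig2, Sox10 and Pdgfra for glioma cells, Aqp4 and Gja1 for astrocyte-like cells, Mag and Mog for oligodendrocytes, C1qa and Csf1r for macrophages and Cd3e and Nkg7 for T and NK cells. There were 6472 and 4543 EGFP-high glioma cells in tumours 1 and 2, 587 and 65 EGFP-high astrocyte-like cells, 144 and 85 oligodendrocytes (of which 98 and 55 were EGFP-high), 817 and 961 macrophages and 243 and 592 T and NK cells. Levels are UMIs of a gene per 10,000 UMIs of the class, and a pair of values is that of tumours 1 and 2. They count transcripts, 1 UMI for each, and are not scaled to gene length. Intervals cover counting error only. As each tumour gave 1 library, they say nothing on the spread between animals.

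Receptor subunits made up a larger share of the RNA in all 3 neural classes than in immune cells. Summed over the 41 subunits, the level was 15.7 and 8.41 UMIs per 10,000 in astrocyte-like cells, 10.5 and 3.18 in glioma cells and 5.10 and 2.30 in oligodendrocytes, against 0.898 and 0.257 in macrophages and 0.881 and 0.394 in T and NK cells. AMPA subunits took 52.9% and 48.1% of the subunit UMIs of glioma cells, and Gria2, Gria3 and the third most abundant subunit, Grin3a in tumour 1 and Gabbr1 in tumour 2, together took 55.4% and 51.4%. GABA-A subunits took 24.1% and 41.0% of the subunit UMIs in astrocyte-like cells, against 9.86% and 11.4% in glioma cells. The immune classes are not free of these transcripts, and Gria2 led in macrophages too, with 28.8% and 19.3% of their subunit UMIs, against 33.0% and 25.4% in glioma cells. Whether RNA of broken cells gave the immune counts was not tested.

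**Figure D1:**
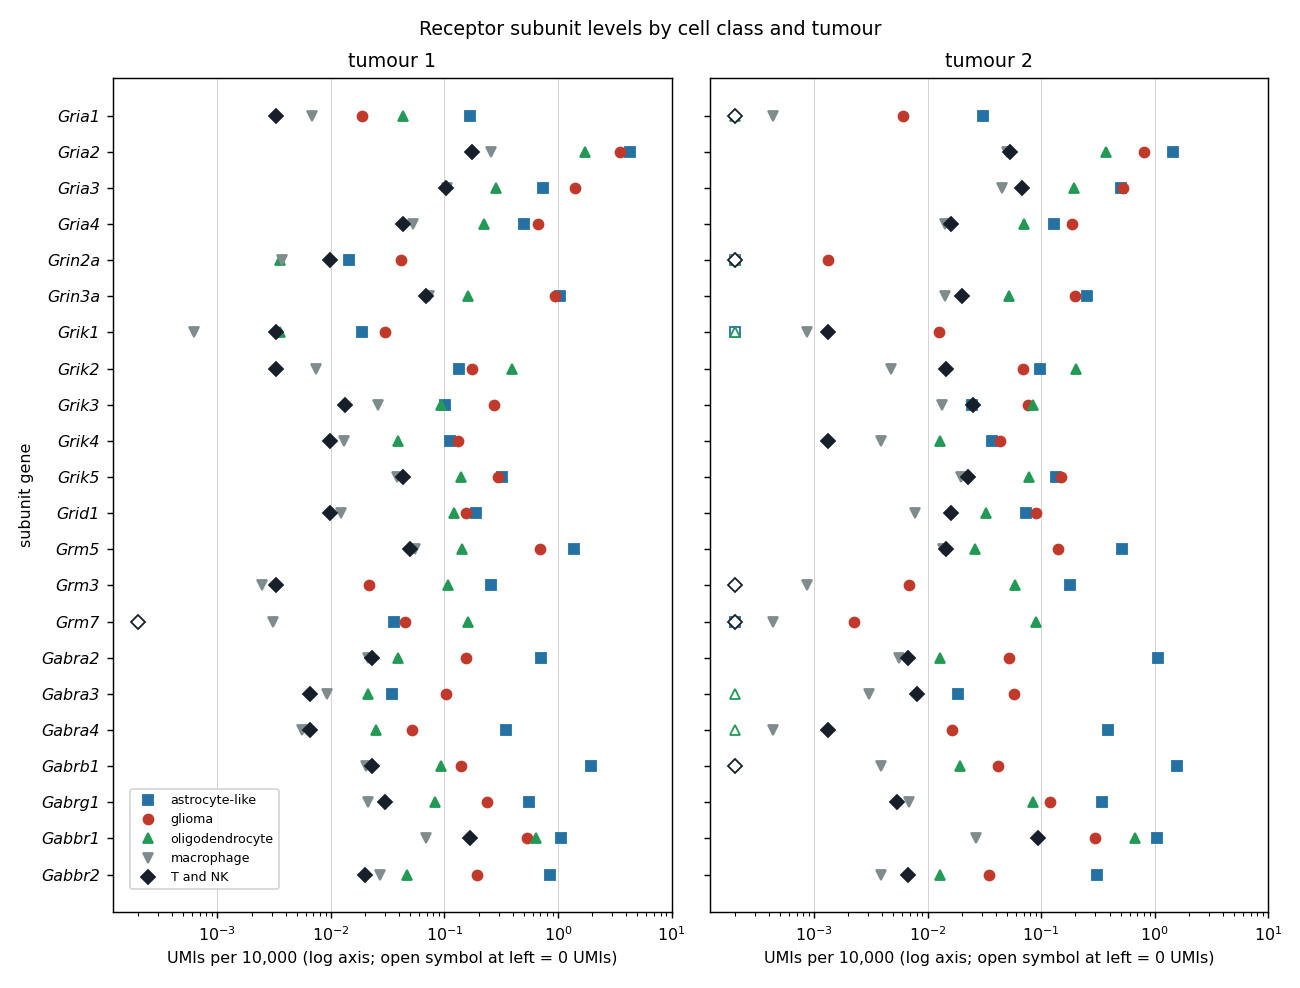
Levels of 22 of the 24 subunits that passed the filter on low counts, in UMIs per 10,000 on a log axis, in 5 cell classes of tumour 1 (left) and tumour 2 (right). Open symbols at the left edge are classes with 0 UMIs. Gria2 had the highest level in glioma cells of both tumours, at 3.48 and 0.806, and Gabrb1 and Gabra2 stood far apart between astrocyte-like and glioma cells.

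Differences between classes were tested with edgeR on UMI counts summed per class and tumour, with the tumour as a block and p adjusted over all genes tested. Of the 41 subunits, 24 passed the filter on low counts, and as the filter keeps genes through the classes where they are high, the counts that follow describe those 24 and not all 41. Against immune cells, the mean of macrophages and T and NK cells on the log scale, 23 of the 24 were called higher in glioma cells and 0 lower, beside 27.5% of all 14203 genes higher and 24.9% lower. Their median log2 fold change was 2.66, against -0.01 over all genes, and 1.83 with doublets kept. In astrocyte-like cells 21 were higher than in immune cells and 0 lower, beside 29.0% and 26.3% of all genes, with a median of 3.13 against 0.01. In oligodendrocytes 13 were higher and 0 lower, beside 21.9% and 23.9%, with a median of 1.43 against -0.10. At this threshold more subunits were called in glioma and astrocyte-like cells than in oligodendrocytes, but the oligodendrocyte sums held only 1431 and 355 subunit UMIs.

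**Figure D2:**
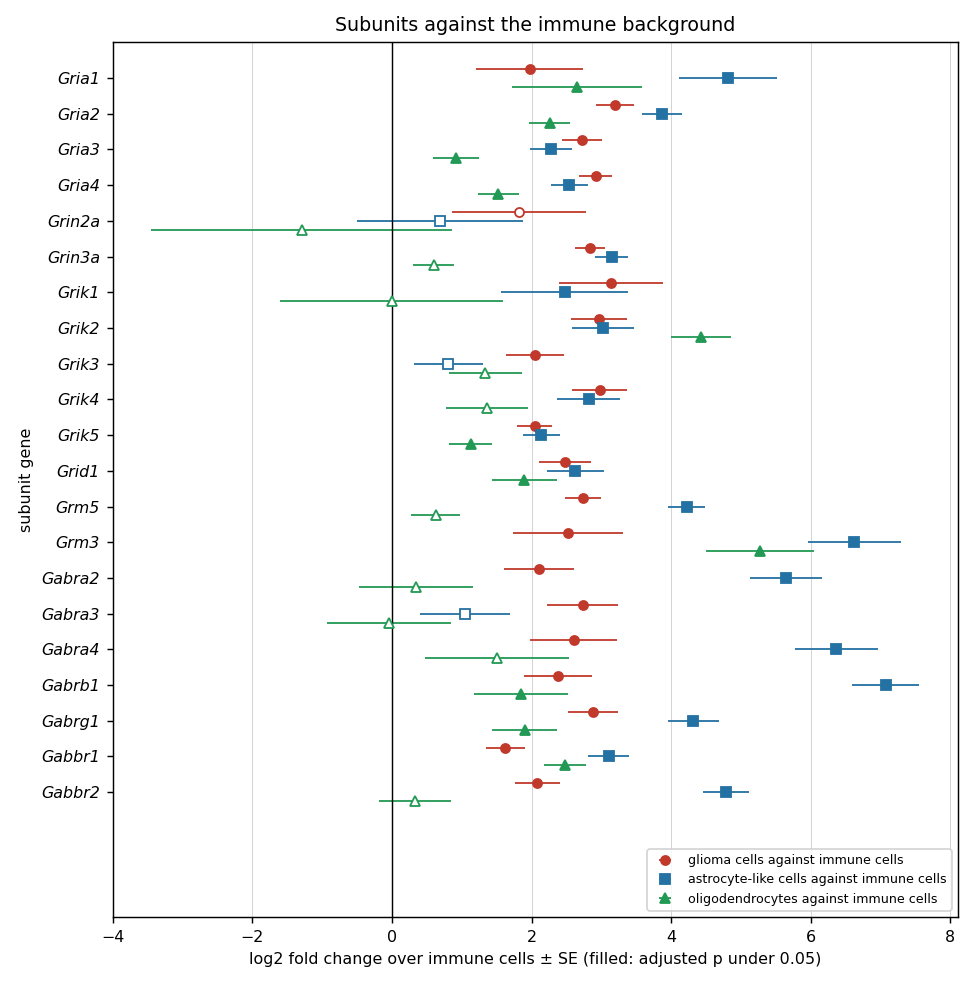
Log2 fold changes over immune cells (points) with their SE (lines) for 21 subunits in glioma cells, astrocyte-like cells and oligodendrocytes, from edgeR with the tumour as a block. Filled symbols passed an adjusted p of 0.05. Grm7 is not drawn, since T and NK cells held 0 UMIs of it in both tumours. Gabrb1, Grm3 and Gabra4 lay farthest to the right in astrocyte-like cells, at 7.08, 6.62 and 6.37, over T and NK sums with few UMIs.

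All 4 AMPA subunits were called higher in glioma than in immune cells. Gria2 was at 4.31 and 1.44 UMIs per 10,000 in astrocyte-like cells, 3.48 and 0.806 in glioma cells (53580 and 8531 UMIs), 1.73 and 0.369 in oligodendrocytes, 0.259 and 0.0495 in macrophages and 0.175 and 0.0532 in T and NK cells. The Gria2 difference between glioma and immune cells was 3.20 on the log2 scale (SE 0.28, edgeR adjusted p = 4.58e-07). Gria2 sets the calcium permeability of AMPA channels and was the most abundant subunit of glioma cells in both tumours. Gria3 was at 0.743 and 0.502 UMIs per 10,000 in astrocyte-like cells, 1.41 and 0.529 in glioma cells (21706 and 5594 UMIs), 0.282 and 0.194 in oligodendrocytes, 0.105 and 0.0448 in macrophages and 0.102 and 0.0678 in T and NK cells. The Gria3 difference between glioma and immune cells was 2.73 on the log2 scale (SE 0.29, edgeR adjusted p = 2.63e-06). Gria3 is an AMPA subunit that pairs with Gria2 in many brain cells, and it was lower in astrocyte-like than in glioma cells of both tumours, by little in tumour 2. Gria4 was at 0.502 and 0.128 UMIs per 10,000 in astrocyte-like cells, 0.666 and 0.185 in glioma cells (10248 and 1963 UMIs), 0.225 and 0.0711 in oligodendrocytes, 0.0527 and 0.0142 in macrophages and 0.0429 and 0.0160 in T and NK cells. The Gria4 difference between glioma and immune cells was 2.92 on the log2 scale (SE 0.24, edgeR adjusted p = 3.12e-07). The fourth subunit, Gria1, carries much of the AMPA current of hippocampal neurons and was low here in all classes but the astrocyte-like cells. Gria1 was at 0.168 and 0.0306 UMIs per 10,000 in astrocyte-like cells, 0.0186 and 0.00605 in glioma cells (287 and 64 UMIs), 0.0428 and 0 in oligodendrocytes, 0.00682 and 0.000431 in macrophages and 0.00330 and 0 in T and NK cells. The Gria1 difference between glioma and immune cells was 1.97 on the log2 scale (SE 0.76, edgeR adjusted p = 0.0442), and that call was lost in 7 alternatives, among them DESeq2, doublets kept and no block. With 3 UMIs in the sum taken as the limit of a count of 0, a level of 0 allows up to 0.0194 UMIs per 10,000 in oligodendrocytes of tumour 2 and up to 0.00399 in T and NK cells of tumour 2. In the astrocyte-like cells of tumour 2 it allows up to 0.0184.

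Among NMDA subunits only Grin3a and Grin2a passed the filter. Grin3a binds glycine and lowers the calcium flow of the receptors it joins, while Grin1 is the subunit that all NMDA receptors need. Grin3a was at 1.04 and 0.251 UMIs per 10,000 in astrocyte-like cells, 0.947 and 0.197 in glioma cells (14579 and 2088 UMIs), 0.161 and 0.0517 in oligodendrocytes, 0.0737 and 0.0142 in macrophages and 0.0693 and 0.0199 in T and NK cells. The Grin3a difference between glioma and immune cells was 2.84 on the log2 scale (SE 0.22, edgeR adjusted p = 1.86e-07). Grin1 was at 0.0131 and 0.0184 UMIs per 10,000 in astrocyte-like cells, 0.0208 and 0.0162 in glioma cells (320 and 171 UMIs), 0.00357 and 0.00647 in oligodendrocytes, 0.00620 and 0.00129 in macrophages and 0 and 0.00399 in T and NK cells. Grin3a thus had 14579 and 2088 UMIs in glioma cells where Grin1 had 320 and 171, and Grin1 stood above the macrophage level in glioma cells of both tumours. Grin1 did not pass the filter of the fit reported, and it was called in 4 alternatives: no filter, doublets kept, the mitochondrial limit of 10% and the 3-fold higher EGFP limit. The Grin2 subunits bind glutamate and were all low. Grin2a was at 0.0146 and 0 UMIs per 10,000 in astrocyte-like cells and 0.0416 and 0.00132 in glioma cells (641 and 14 UMIs), with at most 6 UMIs in any sum of the other classes. Grin2b was at 0.0437 and 0 UMIs per 10,000 in astrocyte-like cells and 0.0180 and 0.00198 in glioma cells (277 and 21 UMIs), with at most 3 UMIs in any sum of the other classes. The Grin2a difference between glioma and immune cells, 1.82 on the log2 scale (SE 0.96, edgeR adjusted p = 0.129), did not pass the threshold. Grin2c was at 0.0867 and 0.00612 UMIs per 10,000 in astrocyte-like cells and 0.00214 and 0.000567 in glioma cells (33 and 6 UMIs), with at most 10 UMIs in any sum of the other classes. Grin3b was at 0.00801 and 0 UMIs per 10,000 in astrocyte-like cells and 0.00357 and 0.00113 in glioma cells (55 and 12 UMIs), with at most 1 UMI in any sum of the other classes. Grin2d, the remaining Grin2 subunit, had 23 and 5 UMIs in glioma cells.

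The 5 kainate subunits fall into Grik1 to Grik3, which can form channels on their own, and Grik4 and Grik5, which need one of those and raise the affinity for glutamate. Grik5 was at 0.322 and 0.135 UMIs per 10,000 in astrocyte-like cells, 0.295 and 0.149 in glioma cells (4550 and 1577 UMIs), 0.139 and 0.0776 in oligodendrocytes, 0.0384 and 0.0198 in macrophages and 0.0429 and 0.0226 in T and NK cells. Grik3 was at 0.101 and 0.0245 UMIs per 10,000 in astrocyte-like cells, 0.275 and 0.0772 in glioma cells (4237 and 817 UMIs), 0.0927 and 0.0841 in oligodendrocytes, 0.0260 and 0.0133 in macrophages and 0.0132 and 0.0253 in T and NK cells. Grik2 was at 0.133 and 0.0979 UMIs per 10,000 in astrocyte-like cells, 0.175 and 0.0696 in glioma cells (2700 and 737 UMIs), 0.396 and 0.2005 in oligodendrocytes, 0.00743 and 0.00474 in macrophages and 0.00330 and 0.0146 in T and NK cells. Grik2 was the kainate subunit that was highest in oligodendrocytes of both tumours. Grik4 was at 0.111 and 0.0367 UMIs per 10,000 in astrocyte-like cells, 0.130 and 0.0433 in glioma cells (2007 and 458 UMIs), 0.0392 and 0.0129 in oligodendrocytes, 0.0130 and 0.00387 in macrophages and 0.00989 and 0.00133 in T and NK cells. Grik1 was at 0.0189 and 0 UMIs per 10,000 in astrocyte-like cells, 0.0300 and 0.0127 in glioma cells (462 and 134 UMIs), 0.00357 and 0 in oligodendrocytes, 0.000620 and 0.000861 in macrophages and 0.00330 and 0.00133 in T and NK cells. In glioma over immune cells the log2 fold changes were 3.14 for Grik1 (SE 0.75, edgeR adjusted p = 0.0027), 2.97 for Grik2 (SE 0.40, edgeR adjusted p = 2.67e-05), 2.05 for Grik3 (SE 0.41, edgeR adjusted p = 0.000772), 2.97 for Grik4 (SE 0.40, edgeR adjusted p = 2.57e-05) and 2.04 for Grik5 (SE 0.25, edgeR adjusted p = 8.88e-06). The Grik1 call was lost against T and NK cells alone. The delta receptors are relatives of these channels that glutamate does not open. Grid1 was at 0.189 and 0.0734 UMIs per 10,000 in astrocyte-like cells, 0.153 and 0.0907 in glioma cells (2359 and 960 UMIs), 0.121 and 0.0323 in oligodendrocytes, 0.0124 and 0.00775 in macrophages and 0.00989 and 0.0160 in T and NK cells. The Grid1 difference between glioma and immune cells was 2.48 on the log2 scale (SE 0.37, edgeR adjusted p = 6.55e-05).

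In glioma and astrocyte-like cells the metabotropic receptors were led by Grm5, a group I receptor that couples to phospholipase C. In oligodendrocytes of both tumours Grm7 was above Grm5. Grm5 was at 1.39 and 0.514 UMIs per 10,000 in astrocyte-like cells, 0.696 and 0.140 in glioma cells (10718 and 1481 UMIs), 0.143 and 0.0259 in oligodendrocytes, 0.0551 and 0.0138 in macrophages and 0.0495 and 0.0146 in T and NK cells. The Grm5 difference between glioma and immune cells was 2.73 on the log2 scale (SE 0.25, edgeR adjusted p = 9.38e-07). Grm3, a group II receptor that lowers cyclic AMP, is known from astrocytes. Grm3 was at 0.255 and 0.177 UMIs per 10,000 in astrocyte-like cells, 0.0215 and 0.00690 in glioma cells (331 and 73 UMIs), 0.107 and 0.0582 in oligodendrocytes, 0.00248 and 0.000861 in macrophages and 0.00330 and 0 in T and NK cells. The Grm3 difference between glioma and immune cells was 2.52 on the log2 scale (SE 0.79, edgeR adjusted p = 0.015) and was lost as a call with doublets kept and against T and NK cells alone. Grm7 is a group III receptor, known from presynaptic endings. Grm7 was at 0.0357 and 0 UMIs per 10,000 in astrocyte-like cells, 0.0451 and 0.00227 in glioma cells (695 and 24 UMIs), 0.161 and 0.0905 in oligodendrocytes, 0.00310 and 0.000431 in macrophages and 0 and 0 in T and NK cells. No fold of Grm7 over immune cells is given, as T and NK cells held 0 UMIs of it, which at the same limit of 3 UMIs allows up to 0.00989 and 0.00399 UMIs per 10,000. Grm4 was at 0.00437 and 0.00612 UMIs per 10,000 in astrocyte-like cells and 0.0167 and 0.00198 in glioma cells (257 and 21 UMIs), with at most 4 UMIs in any sum of the other classes. Other metabotropic receptors were low, with 38 and 24 UMIs of Grm8, 6 and 2 of Grm2 and 2 and 1 of Grm6 in glioma cells.

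GABA-A receptors are built from alpha, beta and gamma or delta subunits. Alpha and beta subunits form the GABA binding site between them. Gabra2 was at 0.708 and 1.06 UMIs per 10,000 in astrocyte-like cells, 0.154 and 0.0517 in glioma cells (2374 and 547 UMIs), 0.0392 and 0.0129 in oligodendrocytes, 0.0211 and 0.00560 in macrophages and 0.0231 and 0.00665 in T and NK cells. Gabra3 was at 0.0342 and 0.0184 UMIs per 10,000 in astrocyte-like cells, 0.104 and 0.0573 in glioma cells (1595 and 606 UMIs), 0.0214 and 0 in oligodendrocytes, 0.00929 and 0.00301 in macrophages and 0.00660 and 0.00798 in T and NK cells. Gabra4 was at 0.348 and 0.385 UMIs per 10,000 in astrocyte-like cells, 0.0515 and 0.0163 in glioma cells (793 and 173 UMIs), 0.0250 and 0 in oligodendrocytes, 0.00558 and 0.000431 in macrophages and 0.00660 and 0.00133 in T and NK cells. Gabra3 was the only one of these that was lower in astrocyte-like than in glioma cells of both tumours, in a difference that did not pass the test (-1.69, SE 0.64, edgeR adjusted p = 0.0999). Gabra5 was at 0.00510 and 0 UMIs per 10,000 in astrocyte-like cells and 0.0131 and 0.000567 in glioma cells (202 and 6 UMIs), with at most 2 UMIs in any sum of the other classes. Gabra6, known from cerebellar granule cells, had 0 UMIs. The beta subunits are needed in all such receptors of the brain. Gabrb1 was at 1.96 and 1.55 UMIs per 10,000 in astrocyte-like cells, 0.141 and 0.0412 in glioma cells (2172 and 436 UMIs), 0.0927 and 0.0194 in oligodendrocytes, 0.0204 and 0.00387 in macrophages and 0.0231 and 0 in T and NK cells. Gabrb2 was at 0.0138 and 0.0184 UMIs per 10,000 in astrocyte-like cells and 0.0214 and 0.00803 in glioma cells (330 and 85 UMIs), with at most 2 UMIs in any sum of the other classes. Gabrb1 was the leading GABA-A subunit of astrocyte-like cells. Gabrg1 was at 0.552 and 0.343 UMIs per 10,000 in astrocyte-like cells, 0.236 and 0.120 in glioma cells (3639 and 1268 UMIs), 0.0820 and 0.0841 in oligodendrocytes, 0.0211 and 0.00689 in macrophages and 0.0297 and 0.00532 in T and NK cells. Gabrg1 is a gamma subunit. Gabrg3 was at 0.0124 and 0 UMIs per 10,000 in astrocyte-like cells and 0.0152 and 0.000283 in glioma cells (234 and 3 UMIs), with at most 1 UMI in any sum of the other classes. Gabrd was at 0.00291 and 0 UMIs per 10,000 in astrocyte-like cells and 0.00214 and 0.00501 in glioma cells (33 and 53 UMIs), with at most 4 UMIs in any sum of the other classes. The delta subunit, a part of receptors outside synapses, had more UMIs in the glioma cells of tumour 2.

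Among the GABA-A log2 fold changes of glioma over immune cells were 2.88 for Gabrg1 (SE 0.36, edgeR adjusted p = 1.14e-05), 2.73 for Gabra3 (SE 0.51, edgeR adjusted p = 0.000417), 2.60 for Gabra4 (SE 0.63, edgeR adjusted p = 0.00298), 2.38 for Gabrb1 (SE 0.49, edgeR adjusted p = 0.000966) and 2.10 for Gabra2 (SE 0.50, edgeR adjusted p = 0.00277). The GABA-B receptor needs both its subunits, Gabbr1, which binds GABA, and Gabbr2, which couples to the G protein. Gabbr1 was at 1.05 and 1.04 UMIs per 10,000 in astrocyte-like cells, 0.533 and 0.297 in glioma cells (8206 and 3138 UMIs), 0.635 and 0.673 in oligodendrocytes, 0.0682 and 0.0267 in macrophages and 0.168 and 0.0931 in T and NK cells. Gabbr2 was at 0.851 and 0.312 UMIs per 10,000 in astrocyte-like cells, 0.195 and 0.0344 in glioma cells (3006 and 364 UMIs), 0.0464 and 0.0129 in oligodendrocytes, 0.0273 and 0.00387 in macrophages and 0.0198 and 0.00665 in T and NK cells. Gabbr1 exceeded Gabbr2 in every class of both tumours listed here. The Gabbr1 difference between glioma and immune cells was 1.62 on the log2 scale (SE 0.28, edgeR adjusted p = 0.000253) and that of Gabbr2 2.08 on the log2 scale (SE 0.33, edgeR adjusted p = 9.97e-05). Gabbr1 was also the subunit with the most UMIs in T and NK cells of tumour 2, with 23.6% of their subunit UMIs.

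Neuron markers were measured beside these values, since neurons carry most of the receptors. The 7 neuron markers (Rbfox3, Snap25, Syt1, Slc17a7, Gad2, Nrgn and Snhg11) summed to 0.866 and 0.141 UMIs per 10,000 in astrocyte-like cells, 0.998 and 0.170 in glioma cells and 0.346 and 0.136 in oligodendrocytes, against 0.105 and 0.0232 in macrophages and 2.69 and 0.598 in T and NK cells. None of the 7 was at 0 in glioma cells, where they ranged in tumour 1 from 0.00896 for Slc17a7 to 0.498 for Snhg11. In T and NK cells nearly all were of Nrgn, with 803 and 436 UMIs. Only 3 cells of each tumour with at least 5000 UMIs had these markers at 20 or more per 10,000. The part of neuronal RNA in the receptor values was not tested.

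Most thinned glioma cells of tumour 1 held a Gria2 transcript. At a fixed 5000 UMIs per cell, Gria2 was found in 73.3% and 41.5% of astrocyte-like cells, 72.8% and 32.5% of glioma cells and 45.8% and 10.6% of oligodendrocytes, against 9.06% and 2.39% of macrophages and 9.47% and 2.20% of T and NK cells. The exact 95% intervals were 71.7% to 73.8% and 31.1% to 33.9% in glioma cells, against 7.18% to 11.2% and 1.52% to 3.57% in macrophages. Without thinning the shares were 93.2% and 62.3% of glioma cells, at median depths of 20301.5 and 19238 UMIs, against 25.5% and 9.89% of macrophages, at 17982 and 22536. All classed cells had at least 5000 UMIs, so thinning left none of them out. At least 1 of the 41 subunits was found in 98.6% and 90.8% of thinned astrocyte-like cells, 96.7% and 72.6% of glioma cells and 87.5% and 56.5% of oligodendrocytes, against 28.0% and 11.6% of macrophages and 42.8% and 20.1% of T and NK cells. A thinned glioma cell held 3.72 and 1.55 different subunits on average, and a thinned macrophage 0.370 and 0.134. Without thinning at least 1 subunit was found in 99.8% and 95.7% of glioma cells, against 65.7% and 37.6% of macrophages.

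Oligodendrocytes are the mature cells of the lineage whose precursor markers (Olig1, Olig2, Sox10, Pdgfra, Cspg4) helped to class the glioma cells. The class here summed to 15.8 and 13.7 UMIs per 10,000 of the glioma markers, against 23.7 and 19.4 in glioma cells. Markers of the Gpr17 gate described below were at 4.14 and 3.23, against 2.88 and 1.34. Of its 144 and 85 cells, 98 and 55 were EGFP-high. Whether the class holds tumour cells was not tested. Glioma cells had more of 8 and less of 3 of the 24 subunits, beside 8.79% of all genes higher and 9.0% lower, and the median was 1.03, against 0.13 over all genes. Grin3a was at 0.947 and 0.197 UMIs per 10,000 in glioma cells, against 0.161 and 0.0517 in oligodendrocytes (log2 2.24, SE 0.30, edgeR adjusted p = 0.000194). Grm5 was higher as well (2.11, SE 0.35, edgeR adjusted p = 0.000843), and so was Gria3 (1.81, SE 0.37, edgeR adjusted p = 0.00359). Gabra3 had the largest of these differences (2.77, SE 0.78, edgeR adjusted p = 0.0245), with 0 UMIs in the oligodendrocytes of tumour 2. Others were Gabbr2 (1.75, SE 0.47, edgeR adjusted p = 0.0197), Grik4 (1.62, SE 0.51, edgeR adjusted p = 0.0433) and Gria4 (1.39, SE 0.31, edgeR adjusted p = 0.00572). Gria2 pointed the same way and missed the threshold (0.94, SE 0.33, edgeR adjusted p = 0.0652).

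The subunits that were lower in glioma cells than in oligodendrocytes were metabotropic receptors and a kainate subunit. Grm7 was at 0.0451 and 0.00227 UMIs per 10,000 in glioma cells, against 0.161 and 0.0905 in oligodendrocytes (log2 -3.36, SE 0.84, edgeR adjusted p = 0.0156). The oligodendrocyte sums of Grm7 were small, 45 and 14 UMIs. Grm3 was at 0.0215 and 0.00690 in glioma cells, against 0.107 and 0.0582 in oligodendrocytes (log2 -2.75, SE 0.60, edgeR adjusted p = 0.00565), from 30 and 9 UMIs of oligodendrocytes. Grik2 was at 0.175 and 0.0696 in glioma cells, against 0.396 and 0.2005 in oligodendrocytes (log2 -1.46, SE 0.42, edgeR adjusted p = 0.0256). In none of these did the tumour 1 and tumour 2 values of glioma cells reach the oligodendrocyte value of the same tumour. All 11 calls of this comparison rest on the block: without it, 0 were higher and 0 lower, and over all 14203 genes 221 were higher and 473 lower. Grik4 was also lost in DESeq2 and 6 other alternatives, Grm3 with EGFP-high oligodendrocytes only, Gabbr2 with doublets kept and Grik2 in DESeq2.

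Over immune cells the oligodendrocyte calls included Grm3 (5.27, SE 0.77, edgeR adjusted p = 7.12e-05) and Grik2 (4.43, SE 0.43, edgeR adjusted p = 1.41e-06), both above 4 on the log2 scale. Gria1 was called as well (2.65, SE 0.93, edgeR adjusted p = 0.0326), on 12 and 0 UMIs, and was lost in 6 alternatives, among them DESeq2, doublets kept and no block. Gabbr1 (2.48, SE 0.30, edgeR adjusted p = 1.21e-05) and Gria2 (2.26, SE 0.29, edgeR adjusted p = 2.12e-05) followed. The smaller ones were Gabrg1 at 1.90, Grid1 at 1.90, Gabrb1 at 1.84, Gria4 at 1.53, Grik5 at 1.12 and Gria3 at 0.92 on the log2 scale, with edgeR adjusted p of 0.00405, 0.00431, 0.0365, 0.000822, 0.00831 and 0.036. Of these smaller calls, Gabrb1 and Gria3 were each lost in 4 alternatives besides the block, against macrophages alone and against T and NK cells alone among them, Gabrg1 with doublets kept and Grik5 at gates 1.5 times higher. Grm7 was called too and gets no fold, for the reason given above. Without the block 7 of the 13 calls were left.

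Over immune cells the astrocyte-like calls were led by Gabrb1 (7.08, SE 0.48, edgeR adjusted p = 6.96e-08), Grm3 (6.62, SE 0.66, edgeR adjusted p = 1.83e-06), Gabra4 (6.37, SE 0.59, edgeR adjusted p = 9.19e-07) and Gabra2 (5.64, SE 0.51, edgeR adjusted p = 7.24e-07). Gria1 (4.81, SE 0.70, edgeR adjusted p = 7.12e-05), Gabbr2 (4.78, SE 0.33, edgeR adjusted p = 8.04e-08), Gabrg1 (4.31, SE 0.37, edgeR adjusted p = 4.10e-07) and Grm5 (4.23, SE 0.27, edgeR adjusted p = 4.36e-08) came next. Both metabotropic receptors among these 8, Grm3 and Grm5, are known from astrocytes. The T and NK sums under the largest folds were small, with 7 and 0 UMIs of Gabrb1 and 2 and 1 of Gabra4. Grm3 had 0 UMIs in the T and NK cells of tumour 2, so the sizes of these folds are uncertain. Of others, Gria2 was at 3.87, Grin3a at 3.15, Gabbr1 at 3.11, Grik2 at 3.02, Grik4 at 2.82, Grid1 at 2.63, Gria4 at 2.54, Gria3 at 2.27 and Grik5 at 2.14 on the log2 scale, with edgeR adjusted p of 1.21e-07 for Gria2 and 0.000127 for Grik4, the smallest and the largest p among these 9. Grik1 (2.47, SE 0.91, edgeR adjusted p = 0.0333) rested on tumour 1, as tumour 2 held 0 UMIs of it, was -3.32 on the log2 scale without tumour 1, and was lost in DESeq2 and 4 other alternatives. Grm7, also with 0 UMIs in tumour 2, was called, gets no fold for the reason given above, and was lost against macrophages alone and against T and NK cells alone.

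Most of the subunits that were higher in astrocyte-like than in glioma cells belong to GABA receptors. Of the 24 subunits, 9 were higher in astrocyte-like cells and 0 lower, beside 8.51% of all genes higher and 5.28% lower. The median was 0.23, against 0.04 over all genes. Of the 8 GABA receptor subunits tested 6 were higher, and of the 16 glutamate receptor subunits 3. The largest differences were in Gabrb1 (4.70, SE 0.51, edgeR adjusted p = 0.00011), Grm3 (4.10, SE 0.57, edgeR adjusted p = 0.00044), Gabra4 (3.77, SE 0.56, edgeR adjusted p = 0.000713) and Gabra2 (3.54, SE 0.55, edgeR adjusted p = 0.000926). Gabbr2 (2.70, SE 0.34, edgeR adjusted p = 0.00027), Gria1 (2.84, SE 0.63, edgeR adjusted p = 0.00996), Grm5 (1.49, SE 0.28, edgeR adjusted p = 0.00343), Gabbr1 (1.48, SE 0.34, edgeR adjusted p = 0.00988) and Gabrg1 (1.44, SE 0.37, edgeR adjusted p = 0.0205) followed. The Gria1 levels of astrocyte-like cells came from only 231 and 5 UMIs. Gria2 did not pass (0.67, SE 0.32, edgeR adjusted p = 0.202). For Gabrb1, Gabra2, Gabra4, Gabrg1, Gabbr1, Gabbr2 and Grm3 the astrocyte-like levels of both tumours lay above the glioma levels of both, whereas for Grm5 the astrocyte-like level of tumour 2, 0.514, lay below the glioma level of tumour 1, 0.696. Without the block only Gabrb1 and Grm3 of the 9 were called. Gabbr1 and Gabrg1 were lost at a 3-fold higher EGFP limit and Gabrg1 with doublets kept.

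**Figure D3:**
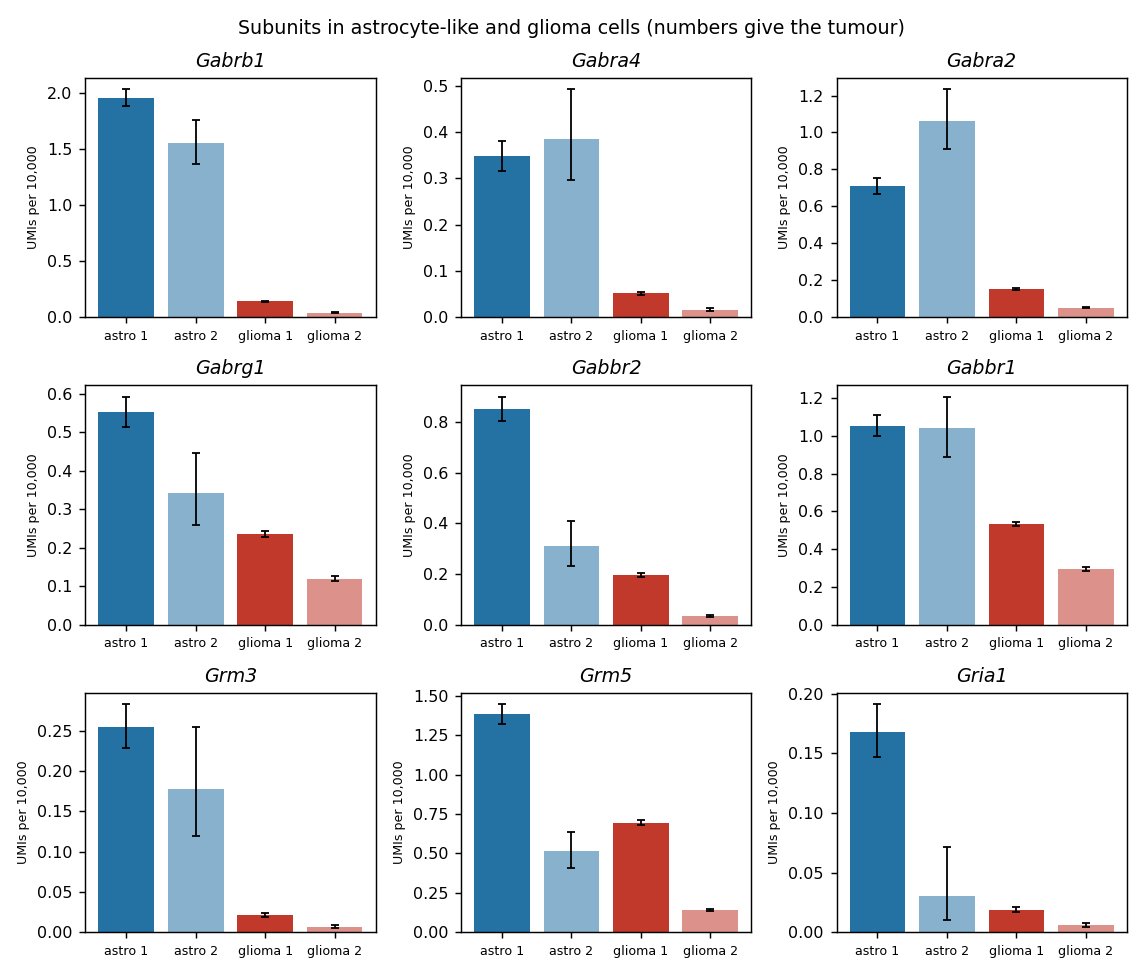
The 9 subunits called higher in astrocyte-like than in glioma cells, in UMIs per 10,000 in each tumour. Bars are the levels of astrocyte-like cells (blue) and glioma cells (red) of tumours 1 and 2, and whiskers are exact Poisson 95% intervals. Gabrb1 was at 1.96 and 1.55 in astrocyte-like cells and at 0.141 and 0.0412 in glioma cells.

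At 5000 UMIs per cell, Gabrb1 was found in 49.2% and 35.4% of astrocyte-like cells, against 6.43% and 2.22% of glioma cells and 0.734% and 0% of macrophages. Unthinned, it was found in 72.2% and 67.7% of astrocyte-like cells, at median depths of 17770 and 21395 UMIs, against 16.3% and 6.58% of glioma cells and 2.82% and 0.832% of macrophages. The glioma share stood above the macrophage share in both tumours, with thinned 95% intervals of 5.84% to 7.05% and 1.81% to 2.69% in glioma cells, against 0.270% to 1.59% and 0% to 0.383% in macrophages. The astrocyte-like class of tumour 2 holds only 65 cells, and 23.7% and 46.2% of the astrocyte-like cells lay within 25% above the marker threshold that defines them, so the class is a range of a score with many cells near its edge.

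Of the 6 GABA subunits that were higher in astrocyte-like cells, 4 are neighbours on chromosome 5 (mm10, GENCODE vM21): Gabrg1 (chr5:70751047-70842617, reverse strand), Gabra2 (chr5:70957597-71095849, reverse strand), Gabra4 (chr5:71569749-71658308, reverse strand) and Gabrb1 (chr5:71658113-72149037, forward strand). Gabra4 and Gabrb1 point away from each other, and their annotated spans overlap at their 5′ ends. The start regions of this pair are shown because both genes were higher in astrocyte-like cells, 250 bases before to 50 bases after each start as RefSeq gives it (GRCm38.p6), with matches to the GC box in capitals.
Gabra4 (chr5:71658259-71658558, reverse strand): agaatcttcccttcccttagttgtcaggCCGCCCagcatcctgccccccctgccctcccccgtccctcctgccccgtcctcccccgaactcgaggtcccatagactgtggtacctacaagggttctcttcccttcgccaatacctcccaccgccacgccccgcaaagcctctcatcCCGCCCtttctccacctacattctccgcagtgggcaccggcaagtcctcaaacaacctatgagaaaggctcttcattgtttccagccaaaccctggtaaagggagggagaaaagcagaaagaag
Gabrb1 (chr5:71657671-71657970, forward strand): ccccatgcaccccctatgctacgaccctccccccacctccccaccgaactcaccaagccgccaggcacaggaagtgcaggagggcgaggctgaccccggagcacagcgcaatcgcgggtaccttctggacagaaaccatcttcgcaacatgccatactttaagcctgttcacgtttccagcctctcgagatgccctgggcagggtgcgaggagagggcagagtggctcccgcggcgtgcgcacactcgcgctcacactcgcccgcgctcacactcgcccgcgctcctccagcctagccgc
The windows lie 288 bases apart. The GC content was 58.7% for Gabra4 and 66% for Gabrb1, with 12 and 25 CG pairs, against medians of 52.7% and 7 over all 32851 promoters of the table. Of 4 motifs searched on both strands, the GC box GGGCGG matched 2 times in Gabra4, where both matches read CCGCCC on the strand shown, and TTGGC, a part of the NFI site, matched 2 times there. The SOX motif ACAAAG and the E box CANNTG matched 0 times in Gabra4, and none of the 4 motifs matched in Gabrb1. Over all promoters 35.7% held GGGCGG, 46.7% TTGGC, 18.7% ACAAAG and 72.3% CANNTG. The table had entries for 26 of the 41 subunits.

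Within the glioma cells, subsets were set by gates that use no receptor gene: mitotic cells (1282 and 744 cells), and among the others a Gpr17 gate for cells with markers of early oligodendrocyte commitment (1089 and 278), an Egfr gate (690 and 44), a gate for cartilage genes (282 and 632) and the ungated remainder (3129 and 2845). No subunit was called between dividing and other glioma cells. Of 28 subunits tested, 0 were called in either direction, beside 4.05% of all genes higher and 1.96% lower in mitotic cells, and DESeq2 called 0 as well. The 1 subunit at an unadjusted p under 0.05 was Gabrb1, at 0.0567 and 0.0254 UMIs per 10,000 in mitotic cells and 0.170 and 0.0461 in the other glioma cells (log2 -1.18, SE 0.45, edgeR adjusted p = 0.183). The summed subunits were at 9.51 and 2.55 in mitotic cells and 10.9 and 3.37 in the others.

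The Gpr17 gate had the highest summed level in tumour 1, 13.5 and 4.496 UMIs per 10,000 in the 2 tumours, against 10.4 and 3.60 in ungated cells. The 7 neuron markers summed to 2.02 and 0.205 in the Gpr17 gate, against 0.828 and 0.189 in ungated cells, most of it Snhg11 in tumour 1 (1.52 against 0.358), and their part in the subunit levels was not tested. Of 31 subunits tested, 0 were called in either direction, beside 0.973% of all genes higher and 1.15% lower, and DESeq2 called 0. At an unadjusted p under 0.05 were 4: Grid1, Grin3a, Grik5 and Grm3, with log2 fold changes of 0.75, 0.56, 0.53 and -1.70. Gria2 was at 4.83 and 1.32 in the Gpr17 gate, against 3.21 and 0.922 in ungated cells (log2 0.52, SE 0.31, edgeR adjusted p = 0.559). Its level was above that of ungated cells in both tumours, and the difference did not pass the test.

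The Egfr gate also gave 0 calls of 31, beside 0.00662% of all genes higher and 0.304% lower, with 0 in DESeq2 and 2 at an unadjusted p under 0.05, Gabrb1 and Gabrg3. Gabrb1 was at 0.319 and 0.259 in the Egfr gate, against 0.164 and 0.0510 in ungated cells (log2 1.55, SE 0.56, edgeR adjusted p = 0.503). Gabrg3 was at 0.00327 and 0 in the Egfr gate, against 0.0170 and 0.000339 in ungated cells. Gria3 and Grin3a were lower in the Egfr gate than in the ungated cells of tumour 1, at 0.777 against 1.495 and at 0.644 against 0.885, with intervals that do not meet. In tumour 2, from 44 cells in the gate, Gria3 pointed the other way, at 0.728 against 0.590, and Grin3a was at 0.160 against 0.216, both with intervals that overlap. Of the Egfr gate cells 28.3% and 43.2% lay within 25% above its threshold.

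The cartilage gate had less of 1 of the 31 subunits and more of 0, beside 0.225% of all genes higher and 0.477% lower. Gabrg1 was at 0.103 and 0.0237 UMIs per 10,000 in the cartilage gate, against 0.227 and 0.141 in ungated cells (log2 -1.80, SE 0.39, edgeR adjusted p = 0.0382). Grm5 was at 0.390 and 0.0181 in the cartilage gate, against 0.754 and 0.177 in ungated cells, and missed the threshold (-1.70, SE 0.44, edgeR adjusted p = 0.0983). In all, 10 of the 31 had an unadjusted p under 0.05, and the median was -0.45. That median was -1.19 in tumour 2 alone and -0.01 in tumour 1 alone, the tumour in which the gate held fewer cells. The Gabrg1 call was lost without the block, with doublets kept, at gates 1.5 times higher, at a 3-fold higher EGFP limit and without an EGFP limit.

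**Figure D4:**
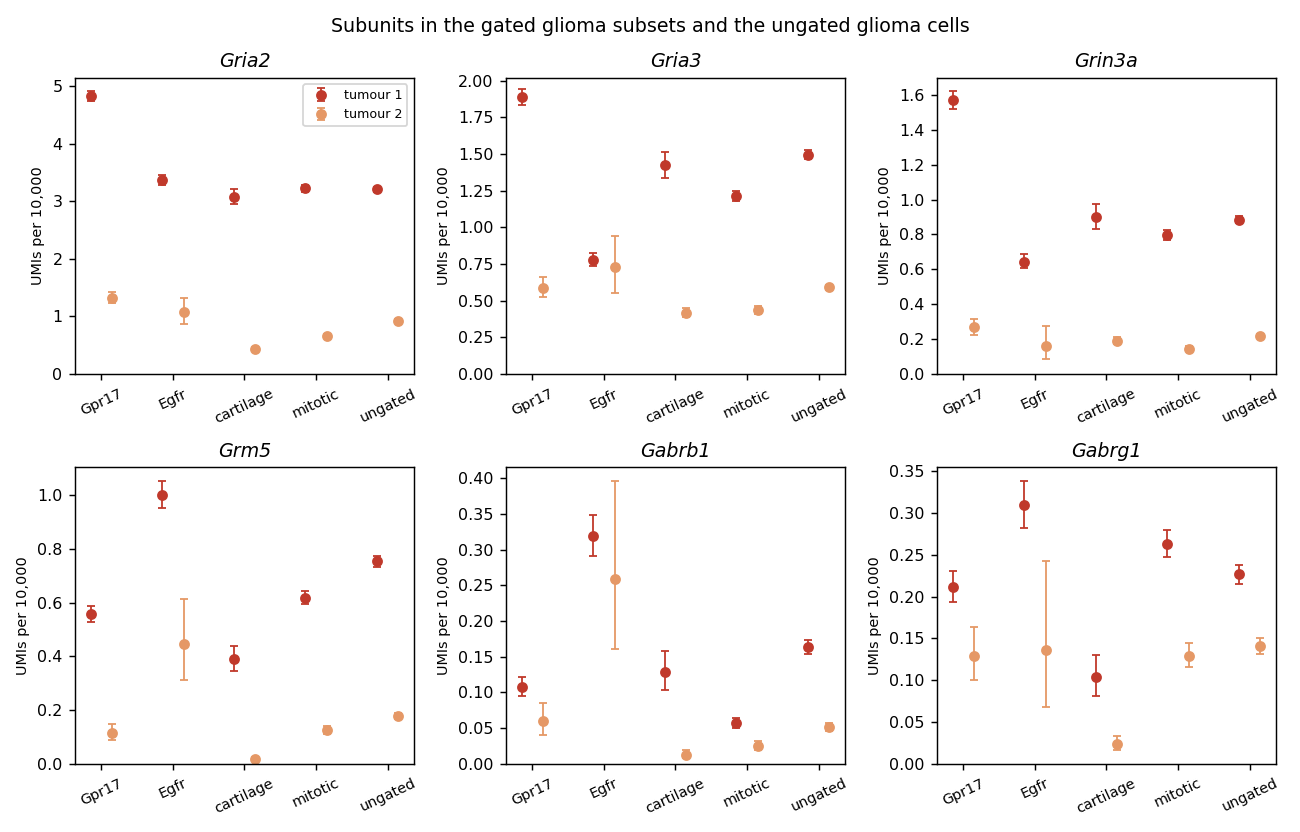
Levels of 6 subunits in the gated subsets of the glioma cells and in the ungated cells, in UMIs per 10,000 for tumour 1 (dark) and tumour 2 (light). Points are levels and whiskers exact Poisson 95% intervals. Tumour 1 lay above tumour 2 in all panels except where whiskers overlap in the Egfr gate (Gria3 and Gabrb1), and Gabrg1 was lowest in the cartilage gate of both tumours.

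Most subunits had higher levels in the glioma cells of tumour 1. Of 38 subunits with at least 20 UMIs in the glioma cells of a tumour, 29 were at least 2-fold higher in tumour 1 and 1 at least 2-fold lower, beside 24.7% of all genes higher and 7.58% lower. The median log2 ratio was 1.66, against 0.39 over all genes. With 1 library per tumour there is no test, and the ratios are of tumour 1 over tumour 2 with counting intervals. Gria2 had a ratio of 4.32 (95% interval 4.22 to 4.42), Gria3 of 2.67 (95% interval 2.59 to 2.75), Grin3a of 4.80 (95% interval 4.58 to 5.03) and Grm5 of 4.97 (95% interval 4.71 to 5.26). The most unequal were Gabrg3 at 53.6 (95% interval 18.1 to 262), Grin2a at 31.5 (95% interval 18.6 to 57.9), Gabra5 at 23.1 (95% interval 10.4 to 63.8) and Grm7 at 19.9 (95% interval 13.3 to 31.3), receptors with few UMIs in tumour 2. Gabrg3, Grin2a and Gabra5 had 3, 14 and 6 UMIs there, so they entered the count only through the tumour where they were high. Gabbr1 at 1.80 (95% interval 1.72 to 1.87) and Grin1 at 1.29 (95% interval 1.06 to 1.56) were under 2-fold, and Gabrd at 0.428 (95% interval 0.268 to 0.673) was lower in tumour 1.

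The same direction was seen in other classes of the libraries. In macrophages 13 of 16 subunits with enough UMIs were at least 2-fold higher in tumour 1 and 0 lower, beside 21.5% of all genes higher and 6.07% lower, and Gria2 had a ratio of 5.23 (95% interval 4.25 to 6.49). In astrocyte-like cells 17 of 26 were at least 2-fold higher and 0 lower, beside 25.1% and 4.06% of all genes, and in oligodendrocytes 7 of 15 and 0, beside 20.9% and 2.82%. Of 8 GABA receptor subunits with enough UMIs in astrocyte-like cells, 6 had a ratio above 1 and 2 were at least 2-fold higher. Gabra2 went the other way there, with a ratio of 0.665 (95% interval 0.566 to 0.786). Gabra4 at 0.902 (95% interval 0.692 to 1.19) and Gabbr1 at 1.01 (95% interval 0.863 to 1.19) had intervals that include 1. Gabrb1 was higher in tumour 1 but under 2-fold, at 1.26 (95% interval 1.11 to 1.44). In oligodendrocytes Gabbr1 had a ratio of 0.944 (95% interval 0.737 to 1.21). The neuron markers of glioma cells were also higher in tumour 1, 0.998 against 0.170 UMIs per 10,000 in tumour 2, and the part of this in the ratios was not tested. Whether RNA of broken cells gave the macrophage counts, and with them these ratios, was not tested. Whether ratios differ between classes was not tested either.

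**Figure D5:**
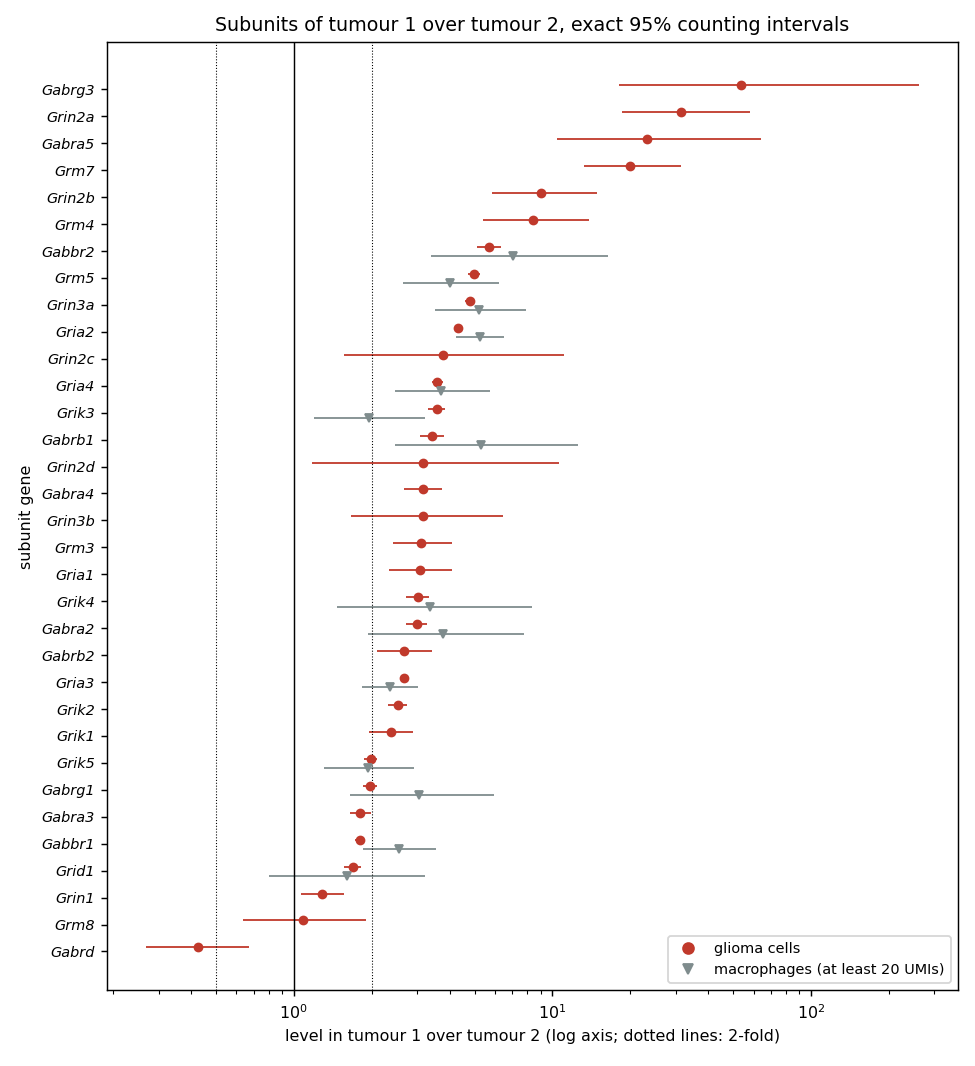
Ratio of the level in tumour 1 over tumour 2 for 33 of the 38 subunits with at least 20 UMIs in the glioma cells of a tumour (red) and, where macrophages had at least 20 UMIs, in macrophages (grey), on a log axis. Whiskers are exact 95% counting intervals and dotted lines mark 2-fold either way. Of the glioma points 25 lie above 2-fold and 1, Gabrd, below.

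Transporters and enzymes that handle the 2 transmitters, and proteins that escort or anchor the receptors, were read from fixed lists. Of 15 of 20 transporters and enzymes that passed the filter, 10 were higher in glioma than in immune cells and 3 lower, beside 27.5% and 24.9% of all genes, with a median log2 fold change of 1.62 against -0.01 over all genes. In astrocyte-like cells 9 were higher than in glioma cells and 1 lower, beside 8.51% and 5.28% of all genes, with a median of 1.98 against 0.04. Slc1a2, the main glutamate transporter of astrocytes, was at 14.4 and 4.65 UMIs per 10,000 in astrocyte-like cells and 0.808 and 0.305 in glioma cells (log2 4.09, SE 0.46, edgeR adjusted p = 0.000124). Slc6a11, a GABA transporter of astrocytes, was at 2.67 and 1.21 in astrocyte-like cells and 0.139 and 0.0236 in glioma cells (log2 5.11, SE 0.47, edgeR adjusted p = 3.74e-05). Both were higher in astrocyte-like cells, where the GABA subunits were higher too, as was the glutamine synthetase gene Glul (3.36, SE 0.28, edgeR adjusted p = 1.83e-05). The neuronal type of glutamate transporter, Slc1a1, went the other way (-1.24, SE 0.33, edgeR adjusted p = 0.0238). Slc1a1 was the only 1 of 18 in this list that was called in the Gpr17 gate, beside 0.973% of all genes higher and 1.15% lower. It was at 1.42 and 1.35 in the gate, against 0.384 and 0.442 in ungated cells (log2 1.71, SE 0.32, edgeR adjusted p = 0.00952). Abat, which breaks down GABA, was the only 1 of 18 called in mitotic cells, beside 4.05% of all genes higher and 1.96% lower. It was at 0.0974 and 0.0632 there, against 0.272 and 0.179 in the other glioma cells (log2 -1.42, SE 0.34, edgeR adjusted p = 0.0189). Against oligodendrocytes, 2 of the 15 were higher and 2 lower in glioma cells, beside 8.79% and 9.0% of all genes (median 0.33, against 0.13 over all genes), so these counts lie near the share of all genes. The lower ones were Glul (-3.42, SE 0.28, edgeR adjusted p = 3.14e-06) and the chloride importer Slc12a2 (-2.81, SE 0.46, edgeR adjusted p = 0.000843).

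Of 37 of 41 auxiliary proteins and scaffolds that passed the filter, 27 were higher in glioma than in immune cells and 2 lower, beside 27.5% and 24.9% of all genes, with a median of 1.93 against -0.01 over all genes. Cacng4, which carries AMPA receptors to the membrane, was the leading one of its family: it was at 1.36 and 1.31 UMIs per 10,000 in astrocyte-like cells, 3.01 and 1.85 in glioma cells and 0.503 and 0.239 in oligodendrocytes, against 0.241 and 0.127 in macrophages and 0.181 and 0.209 in T and NK cells. The Cacng4 difference between glioma and immune cells was 2.85 on the log2 scale (SE 0.24, edgeR adjusted p = 4.50e-07), and against oligodendrocytes it was 2.59 on the log2 scale (SE 0.32, edgeR adjusted p = 8.19e-05). Against oligodendrocytes 8 of the 37 were higher and 2 lower in glioma cells, beside 8.79% and 9.0% of all genes (median 0.84, against 0.13), with Neto2, a partner of kainate receptors, among the higher (1.86, SE 0.30, edgeR adjusted p = 0.000726) and the scaffold Dlg1 among the lower (-2.38, SE 0.29, edgeR adjusted p = 7.28e-05). Kctd12, a partner of GABA-B receptors, was lower in glioma than in immune cells (-3.01, SE 0.36, edgeR adjusted p = 7.88e-06) and higher in astrocyte-like than in glioma cells (1.87, SE 0.38, edgeR adjusted p = 0.00472). In that comparison 4 of the 37 were higher and 1 lower, near the 8.51% and 5.28% of all genes (median 0.13, against 0.04). Of 6 GABA subunits outside the naming rule, 1 passed the filter, Gabre, at 0.0296 and 0.0101 in glioma cells, and it was called higher than in immune cells (1.53, SE 0.56, edgeR adjusted p = 0.0364).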

How the data were processed

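The authors aligned the reads to mm10 with Cell Ranger 4.0.0, with transgenes added to the reference, and deposited raw UMI counts per gene and barcode; the submitters' notes also name Seurat, which was not used here. Per the labels both libraries are GBM of the NPCTKO model. Barcodes with under 500 genes, 20% or more mitochondrial UMIs or 5% or more haemoglobin UMIs were left out, and the highest Scrublet scores were removed (11.4% and 14.9% of barcodes, a rate that scales with their number), since the automatic threshold marked 0 and 1 barcodes. Cells of at least 5000 UMIs were classed from summed markers (UMIs per 10,000 of 15 for immune, vascular and astrocyte, 80 for macrophage, 30 for oligodendrocyte, 10 for T and NK and for mitotic, 5 for glioma and for Gpr17, 4 for Egfr and 12 for cartilage markers), and glioma and astrocyte-like cells also had to exceed an EGFP level (16.6 and 16.1 UMIs per 10,000). Those levels were set after their distributions had been seen. The members, lists and tests were chosen with earlier results of these data known.

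UMI counts were summed per class and tumour for classes that reached 20 cells in each library and tested with edgeR 4.0.16 (quasi-likelihood, filterByExpr, TMM) with the tumour as a block and Benjamini-Hochberg adjustment over all genes: 14203 genes in 14 sums for the classes (6 residual degrees of freedom, common dispersion 0.0536), 14874 genes in 16 sums with mitotic cells split off and 15109 genes in 22 sums with all gates. The classes of a tumour come from 1 animal, which pairs them. Deviations of 21 pairs of classes correlated at 0.0803 to 0.664 across genes. The samples are 2 tumours. With the tumour as a block, p-values rest on how differences between classes varied between these 2 tumours, over all classes of a fit. They do not measure the difference between the tumours that all classes share. Shares of cells were taken after drawing 5000 UMIs from each cell. Alternatives were DESeq2 1.42.0, its size factors in edgeR, no filter, no block, doublets kept, a mitochondrial limit of 10%, gates 1.5 times and EGFP 3 times higher, single immune classes and left-out tumours. All alternatives for the 3 gates, a minimum of 2000 UMIs and no EGFP limit were added after seeing the data. Tested on simulated counts, the edgeR step called most genes of the larger fold and a minority of those of the smaller fold set in them. Levels are printed for the 5 classes compared, of members with at least 50 UMIs in a neural class. Values of some subunits are not reported here, and counts and sums over the subunits include them.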

Additional observations from a re-analysis of the deposited data

How the results depend on the processing

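Over the 6 comparisons between classes and of mitotic cells there were 77 calls, and 831 pairs of a call with an alternative other than the block and left-out tumours. Of these 785 were kept, 46 were lost and 0 reversed. Pairing matters most: with no replicate block 51 of the 77 calls were kept, 7 subunits were higher in oligodendrocytes than in immune cells, 0 higher and 0 lower in glioma cells than in oligodendrocytes, and 2 higher in astrocyte-like than in glioma cells. Over all genes, the calls of that last comparison dropped without the block to 199 higher and 57 lower, beside 1209 and 750 with it. With no filter on low counts 2 subunits were lower in astrocyte-like than in glioma cells, and with gates 1.5 times higher 1 was.

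In the cartilage gate the count of lower subunits was 0 without the block, 2 without the filter, and 0 with doublets kept, at gates 1.5 times higher, at a 3-fold higher EGFP limit and without an EGFP limit, beside 1 in the fit reported. With 1 tumour left out, 151 of 154 log2 fold changes kept their direction and 3 turned, all without tumour 1. In each of the 3, tumour 2 had 0 UMIs in the class. They were Grik1 at -3.32 and Grm7 in astrocyte-like over immune cells, and Gria1 at -1.14 in oligodendrocytes over immune cells. No value of Grm7 is given, as T and NK cells held 0 UMIs of it. A small count was added to each sum before the logarithm, so these 3 directions rest partly on that count. Without tumour 2 the same 3 were 4.95, 2.81 and 2.41. Such values have no test. Drawn down to 2000 UMIs per cell, Gria2 was found in 47.0% and 15.9% of glioma cells, against 5.26% and 0.937% of macrophages. The Egfr gate at 1.5 times higher gates was not run, since tumour 2 had under 20 cells there. Depth limits what 65 astrocyte-like cells and 85 oligodendrocytes of tumour 2 can show of rare subunits.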
